A study of Homo sapiens with 28 samples.

Results

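The 8 genes GJD2, SERTAD1, MKNK2, BAIAP2, VASN, NPTXR, PCDH10 and DIO2 were followed in CHL-1 melanoma cells after inhibition of the BET bromodomain proteins. They were chosen from the values at 4 h, as genes whose response was graded from 75 nM to 468 nM of the compound, so their 4 h values are given as a description with no test, and the tests concern the arrays taken at 24 h. The choice had no numeric threshold. Each of the 8 symbols was named by 1 probe set, among 22357 genes and 53617 probe sets. All 8 passed a filter on dim genes (a log2 intensity above 5 on at least 4 arrays), which left 9285 genes for testing.

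CHL-1 is an established human melanoma line. The cells received the solvent DMSO or the BET inhibitor BAY1238097 at 75 nM or 468 nM, for 4 h or 24 h, and total RNA was hybridised to 28 expression arrays. There were 5 arrays for each of the 4 combinations of dose and time, and 4 arrays for DMSO at each time. The submitters gave 75 nM as the IC50 and 468 nM as the IC90 of the compound, to look for changes that depend on dose. The labels do not state that replicate arrays stem from different cultures, and the p-values below therefore reflect the spread between arrays, which may be technical.

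BET proteins bind acetylated lysines on histones through their bromodomains and help RNA polymerase II pass into productive elongation. BET inhibitors detach them from chromatin. HEXIM1, which encodes a protein that holds the P-TEFb kinase inactive, is a known early readout whose RNA increases, and MYC, a growth-promoting transcription factor, is a known target whose RNA decreases in many tumour lines. The 8 genes belong to no single pathway. GJD2 encodes a connexin of electrical synapses, DIO2 the deiodinase that converts thyroxine to active thyroid hormone inside cells, SERTAD1 a cofactor that binds CDK4 and E2F-DP complexes, and MKNK2 a kinase that phosphorylates the cap-binding factor eIF4E. BAIAP2 encodes an adaptor that links the small GTPases CDC42 and RAC to actin at membrane protrusions, VASN a transmembrane protein that binds TGF-beta, PCDH10 a protocadherin of cell contacts, and NPTXR a membrane-bound neuronal pentraxin that gathers AMPA receptors.

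Promoter windows from RefSeq (GRCh38.p14) matched 6 of the 8 genes. NPTXR and PCDH10 are named only. The windows of GJD2, SERTAD1, MKNK2 and BAIAP2 are shown because these 4 genes had separate groups of arrays at every step of dose at 4 h, GJD2 lower and the other 3 higher with the compound. Each is the 250 bases before the gene start, 5′ to 3′ on the gene's own strand. For BAIAP2 it is the first of 4 windows listed. Capitals mark the letters GGGCGG on either strand (the core of a GC box) and the letters TATAAA on the gene's strand (the core of a TATA box).
GJD2, chr15:34754999-34755248, minus strand: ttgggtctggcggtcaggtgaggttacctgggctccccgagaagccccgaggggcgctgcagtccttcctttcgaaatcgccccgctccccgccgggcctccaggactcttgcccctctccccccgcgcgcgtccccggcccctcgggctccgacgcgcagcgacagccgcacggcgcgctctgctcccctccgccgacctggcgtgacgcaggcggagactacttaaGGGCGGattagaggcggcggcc
SERTAD1, chr19:40425993-40426242, minus strand: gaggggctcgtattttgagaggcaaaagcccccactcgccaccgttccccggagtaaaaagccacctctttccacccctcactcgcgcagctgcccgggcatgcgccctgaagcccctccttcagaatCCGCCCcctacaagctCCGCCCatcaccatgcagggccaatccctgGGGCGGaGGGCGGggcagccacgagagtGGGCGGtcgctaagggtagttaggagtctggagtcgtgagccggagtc
MKNK2, chr19:2051245-2051494, minus strand: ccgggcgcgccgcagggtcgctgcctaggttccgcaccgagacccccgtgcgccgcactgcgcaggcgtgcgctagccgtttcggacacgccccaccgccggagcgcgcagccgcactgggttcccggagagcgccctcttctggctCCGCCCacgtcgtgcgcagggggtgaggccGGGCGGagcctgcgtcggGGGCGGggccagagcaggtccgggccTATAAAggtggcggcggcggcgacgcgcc
BAIAP2, chr17:81034901-81035150, plus strand: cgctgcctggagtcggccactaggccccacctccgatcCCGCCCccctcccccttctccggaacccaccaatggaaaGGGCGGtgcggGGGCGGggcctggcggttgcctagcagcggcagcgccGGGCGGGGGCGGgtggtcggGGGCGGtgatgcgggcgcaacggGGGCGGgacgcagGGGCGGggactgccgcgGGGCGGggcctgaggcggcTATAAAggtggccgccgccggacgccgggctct

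The letters TATAAA stood 29 bases before the start of MKNK2 and 33 bases before that of BAIAP2, and were not in the windows of GJD2 and SERTAD1. Of 35116 windows of the same length in the RefSeq table, 6.8% hold them on the gene's strand. Around them, MKNK2 and BAIAP2 had the 13 letters CTATAAAGGTGGC in common, a stretch found in 3 of the 35116 windows and picked after these windows had been read. The third was that of CYP1A1, the gene of a xenobiotic-metabolising enzyme, which was not among the tested genes. GGGCGG was matched 9 times in BAIAP2, 5 times in SERTAD1, 3 times in MKNK2 and 1 time in GJD2. At least 1 match was present in 42.6% of all windows. The number of matches per window was not counted over all windows, so these numbers have no background. GC content was 72.8% in GJD2, 64.8% in SERTAD1, 77.2% in MKNK2 and 78% in BAIAP2, with a median of 58% over all windows. BAIAP2 has 3 further windows in the table, which held 0 matches of TATAAA and 0 of the 13 letters. In these windows GGGCGG was matched 1, 1 and 3 times, and GC content was 63.2%, 60.8% and 70.4%. The letters described above for BAIAP2 thus belong to 1 of its listed starts, and which start gave the array signal was not tested. DIO2 has 2 windows in the table. In 1 of those of DIO2 the letters TATAAA stood 31 bases before the start, and neither of them held GGGCGG. Their GC content was 46.4% and 40.8%, below the median of all windows. The window of VASN had a GC content of 71.6%, with 3 matches of GGGCGG and 0 of TATAAA. A match describes the letters of the window and is not evidence of a bound factor.

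On the arrays as a whole, median log2 intensities lay between 2.44 and 2.49, so a value shows where a gene stands among the probe sets of its array. Of the 10 melanocyte lineage markers 9 were named by a probe set and 4 passed the filter: SOX10 (mean 9.55), ERBB3 (9.46), CDH19 (10.08) and S100B (6.95). The pigment cell genes MITF, PMEL, MLANA, TYR and TYRP1 had means between 1.05 and 2.95, close to or under the median of all probe sets. Of the markers of other cell types, FBLN1 (fibroblast) and CD68 (leukocyte) passed the filter, and 0 keratinocyte and 0 endothelial markers did. Shifting the arrays to hold 7 reference genes level moved the median change of all tested genes to -0.166 for 468 nM at 24 h, -0.154 for 75 nM at 24 h and -0.17 for 468 nM at 4 h, against -0.019, -0.016 and -0.027 without the shift. With it, the 1896 higher and 2335 lower genes at 468 nM and 24 h became 972 and 2827, the 37 higher and 44 lower genes at 75 nM and 24 h became 6 and 133, and the 368 higher and 645 lower genes at 468 nM and 4 h became 164 and 987. At 75 nM and 24 h repeated quantile normalization gave 69 higher and 50 lower.

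At 4 h the largest difference from DMSO at 468 nM among the 8 genes was that of GJD2, in which each step of dose lowered the signal. Log2 intensities were 10.16, 9.98, 9.52 and 9.83 in DMSO, 8.41, 8.61, 8.62, 8.96 and 9.04 at 75 nM, and 7.15, 7.13, 7.22, 7.30 and 7.21 at 468 nM. No array of a dose overlapped the next, and the spread at 468 nM (SD 0.06, n = 5) was narrower than at 75 nM (SD 0.26, n = 5) or in DMSO (SD 0.27, n = 4). The log2 difference from DMSO was -2.67 ± 0.18 at 468 nM and -1.15 ± 0.18 at 75 nM (± standard error of the fit throughout), so the signal at 468 nM was 0.157 of that in DMSO.

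SERTAD1, MKNK2 and BAIAP2 formed the mirror image at 4 h, with the 3 groups of arrays separate at every step of dose. SERTAD1 had log2 intensities of 6.51, 6.70, 6.38 and 6.79 in DMSO, 7.53, 7.50, 7.84, 7.53 and 7.81 at 75 nM, and 8.63, 8.85, 8.75, 8.41 and 8.55 at 468 nM. MKNK2 had 6.27, 6.53, 6.42 and 6.50 in DMSO, 7.38, 7.46, 7.54, 7.48 and 7.22 at 75 nM, and 8.10, 8.45, 8.19, 8.15 and 8.11 at 468 nM. BAIAP2 had 5.21, 5.01, 4.79 and 4.96 in DMSO, 5.80, 6.15, 6.07, 5.88 and 5.87 at 75 nM, and 6.95, 6.94, 6.89, 6.69 and 6.78 at 468 nM. Each dose step was of like size in these genes. The difference from DMSO at 468 nM was 2.04 ± 0.16 for SERTAD1, 1.77 ± 0.13 for MKNK2 and 1.86 ± 0.12 for BAIAP2, and at 75 nM it was 1.05 ± 0.16, 0.98 ± 0.13 and 0.96 ± 0.12 in the same order of genes. The lower dose gave 51.2% of the log2 effect of the higher dose in SERTAD1, 55.6% in MKNK2 and 51.7% in BAIAP2, against 42.9% in GJD2.

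VASN and PCDH10 were dim in DMSO and their 4 h response lay mainly at the higher dose. VASN had log2 intensities of 3.64, 3.81, 2.76 and 3.87 in DMSO, 4.81, 4.75, 4.56, 3.18 and 3.99 at 75 nM, and 5.67, 6.31, 5.76, 5.85 and 5.97 at 468 nM. In 4 of 5 arrays at 75 nM it was above every DMSO array, and the difference from DMSO was 2.39 ± 0.29 at 468 nM and 0.74 ± 0.29 at 75 nM. PCDH10 had 3.71, 4.49, 3.54 and 4.04 in DMSO, 4.79, 4.35, 3.99, 3.42 and 4.73 at 75 nM, and 5.60, 5.56, 5.97, 5.75 and 5.82 at 468 nM. The PCDH10 arrays at 75 nM lay on both sides of the DMSO arrays, and the lower dose gave 17.2% of the effect of the higher dose, a difference of 0.31 ± 0.29 against one of 1.80 ± 0.29.

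The values of NPTXR and DIO2 go against a response graded at every step at 4 h. NPTXR had log2 intensities of 4.21, 4.54, 4.20 and 4.01 in DMSO, 3.19, 3.75, 3.29, 3.96 and 2.53 at 75 nM, and 4.29, 4.43, 5.70, 5.02 and 4.09 at 468 nM. All 5 arrays at 75 nM lay below DMSO and the arrays at 468 nM overlapped DMSO, so the 1.36 ± 0.26 between the doses was made of a lower value at 75 nM (-0.90 ± 0.28) as well as a higher one at 468 nM (0.47 ± 0.28). DIO2 had 4.96, 6.70, 5.59 and 5.37 in DMSO, 4.42, 4.46, 3.44, 4.68 and 4.42 at 75 nM, and 3.43, 3.69, 4.32, 3.42 and 2.91 at 468 nM. Every treated array of DIO2 was below every DMSO array, but the doses overlapped and differed by -0.73 ± 0.33, and 1 DMSO array stood more than 1 log2 unit above the others. At 4 h the arrays did not overlap between the groups for 7 of the 8 genes at 468 nM against DMSO (13.5% of all tested genes), for 6 at 75 nM against DMSO (3.72%) and for 7 between the doses (4.31%). These counts describe the choice of the genes.

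**Figure D1:**
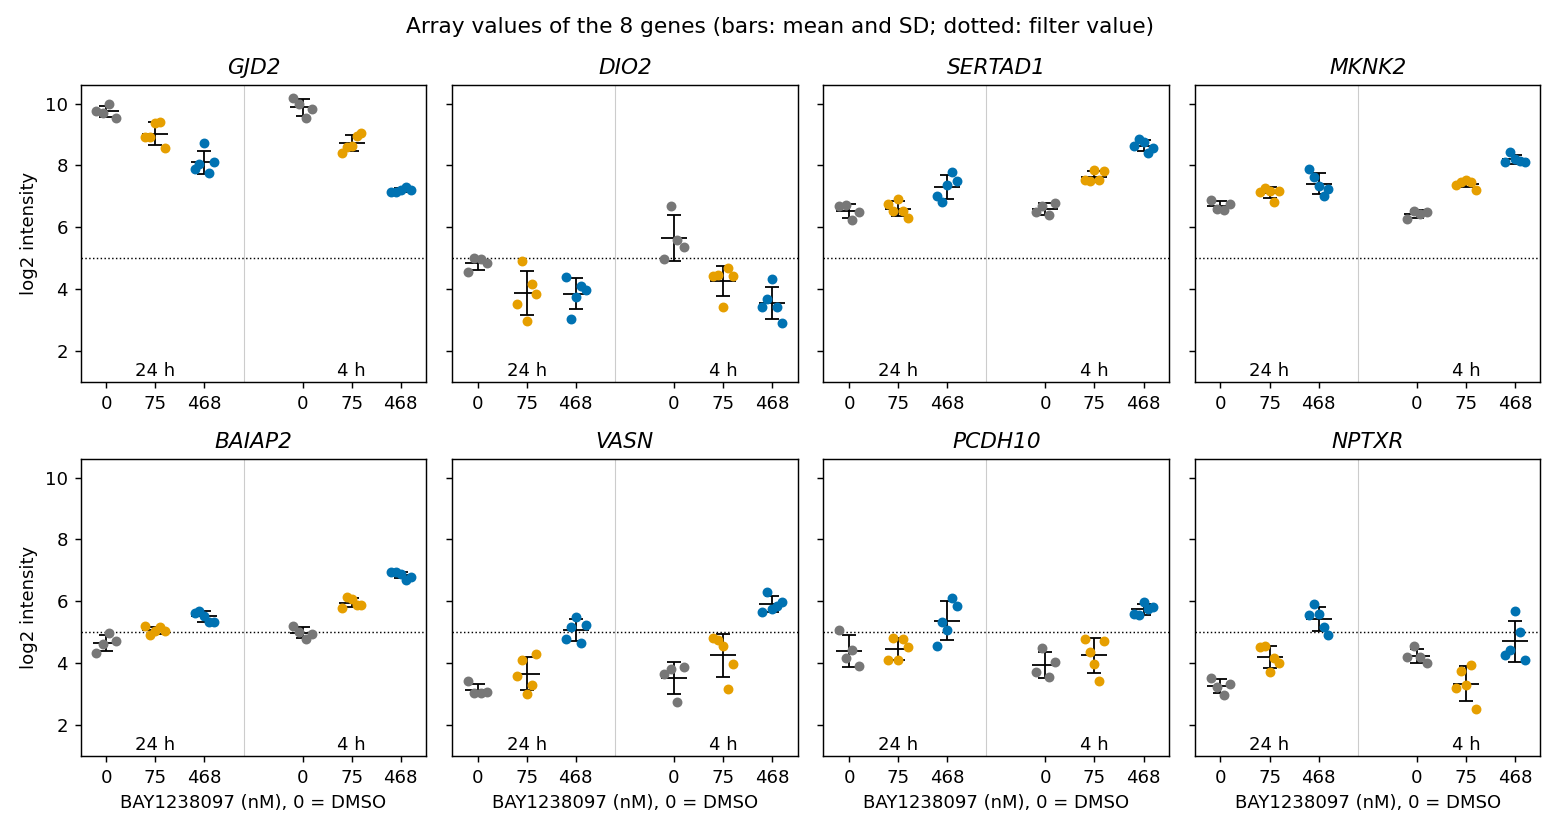
Log2 intensity of the 8 genes on every array (vertical axis) by dose of BAY1238097 in nM (horizontal axis, 0 is DMSO), with 24 h on the left and 4 h on the right of each panel. Points are arrays, black bars the mean and SD, and the dotted line the filter value of 5. GJD2 and DIO2 lie lower with the compound, and NPTXR is the gene whose 75 nM arrays lie below DMSO at 4 h and above it at 24 h.

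The 24 h arrays, which the stated choice did not use, address whether these early differences were still present at the later time. At 468 nM each of the 8 genes differed from DMSO in the direction it had at 468 nM and 4 h. By limma with Benjamini-Hochberg adjustment over all 9285 genes, GJD2 and DIO2 fell, and SERTAD1, MKNK2, BAIAP2, VASN, PCDH10 and NPTXR rose. At this dose and time 45.6% of all tested genes were called (20.4% higher and 25.1% lower), so a call is common here. GJD2, SERTAD1 and MKNK2 were above the filter value on all 28 arrays. BAIAP2 was above it on 10 arrays at 468 nM, 9 at 75 nM and 2 in DMSO. VASN and NPTXR were above it on 468 nM arrays alone (8 and 6 of them), PCDH10 on 9 arrays at 468 nM and 1 in DMSO, and DIO2 on 4 DMSO arrays alone. A difference between groups is thus part of how those 5 genes came to be tested, and no weight is put on the count of 8. With no filter the adjusted p at 468 nM was 1.73e-05 for BAIAP2, 3.39e-05 for VASN, 5.48e-06 for NPTXR, 0.0228 for PCDH10 and 0.0631 for DIO2.

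Among the genes that fell, GJD2 had log2 intensities of 9.75, 9.70, 9.99 and 9.54 in DMSO, 8.92, 8.91, 9.38, 9.40 and 8.55 at 75 nM, and 7.88, 8.05, 8.72, 7.77 and 8.10 at 468 nM. All treated arrays were below all DMSO arrays, and 4 of 5 arrays at 468 nM were below all at 75 nM. GJD2 fell by 1.64 ± 0.18 at 468 nM (limma adjusted p = 5.93e-08), and the difference between 468 nM and 75 nM was -0.93 ± 0.17 (adjusted p = 1.45e-04). At 75 nM its difference from DMSO was -0.72 ± 0.18 (95% interval -1.08 to -0.35), with an adjusted p of 0.0505. That value lies at the threshold. It was 0.0287 with an intensity trend in the prior variance, 0.0322 with the filter at 7, 0.0488 without 75 nM replicate 3 and 0.0343 without 75 nM replicate 4, and it was 0.148 without DMSO replicate 3 and 0.16 with no filter on dim genes.

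DIO2 had log2 intensities of 4.54, 5.01, 4.97 and 4.84 in DMSO, 3.54, 4.91, 2.96, 4.16 and 3.85 at 75 nM, and 4.41, 3.06, 3.76, 4.11 and 3.98 at 468 nM. The arrays at 468 nM were all below DMSO, and the doses lay over each other. DIO2 fell by 0.98 ± 0.35 at 468 nM (limma adjusted p = 0.0248), and its value at 75 nM was -0.96 ± 0.35 (adjusted p = 0.179). The difference between the doses was -0.02 ± 0.33, with a 95% interval of -0.70 to 0.66 and an adjusted p of 0.968. The call at 468 nM was lost without 468 nM replicate 2 (adjusted p = 0.0797), without DMSO replicate 2 (0.0603) or 3 (0.0563), and with no filter on dim genes (0.0631).

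Of the genes that rose, SERTAD1 differed from DMSO at the higher dose and not detectably at the lower one. Its log2 intensities were 6.70, 6.73, 6.22 and 6.48 in DMSO, 6.77, 6.53, 6.90, 6.54 and 6.29 at 75 nM, and 7.0, 6.81, 7.38, 7.79 and 7.51 at 468 nM. The 75 nM arrays overlapped the DMSO arrays, while all 468 nM arrays were above DMSO and 1 of them lay among the 75 nM arrays. SERTAD1 rose by 0.76 ± 0.16 at 468 nM (limma adjusted p = 3.86e-04) and the difference between the doses was 0.69 ± 0.15 (adjusted p = 0.00111). At 75 nM its difference from DMSO was 0.08 ± 0.16, with a 95% interval of -0.26 to 0.41 and an adjusted p of 0.865.

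MKNK2 and BAIAP2 had means above DMSO at both doses and passed the test at 468 nM. MKNK2 had log2 intensities of 6.88, 6.59, 6.54 and 6.75 in DMSO, 7.14, 7.28, 7.16, 6.83 and 7.18 at 75 nM, and 7.87, 7.64, 7.32, 7.01 and 7.24 at 468 nM. BAIAP2 had 4.33, 4.63, 4.97 and 4.73 in DMSO, 5.21, 4.92, 5.04, 5.16 and 5.03 at 75 nM, and 5.64, 5.70, 5.54, 5.35 and 5.35 at 468 nM. In each gene 4 of 5 arrays at 75 nM were above all DMSO arrays, and the doses overlapped for MKNK2 but not for BAIAP2. At 468 nM MKNK2 rose by 0.72 ± 0.13 (limma adjusted p = 7.25e-05) and BAIAP2 by 0.85 ± 0.12 (adjusted p = 1.47e-06). At 75 nM the differences were 0.43 ± 0.13 for MKNK2 (adjusted p = 0.111) and 0.41 ± 0.12 for BAIAP2 (adjusted p = 0.0805), which became 0.51 (adjusted p = 0.0472) for BAIAP2 without DMSO replicate 3. Between the doses BAIAP2 was higher at 468 nM by 0.44 ± 0.11 (adjusted p = 0.00284). MKNK2 stood at 0.30 ± 0.12 (95% interval 0.04 to 0.55, adjusted p = 0.071), and at 0.40 (adjusted p = 0.0122) without 468 nM replicate 4, or 0.32 (adjusted p = 0.044) after repeated quantile normalization.

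VASN and PCDH10 passed the test at 24 h at the higher dose. VASN had log2 intensities of 3.41, 3.04, 3.04 and 3.08 in DMSO, 3.60, 4.12, 3.02, 3.29 and 4.31 at 75 nM, and 4.79, 5.18, 5.50, 4.64 and 5.24 at 468 nM. PCDH10 had 5.09, 4.19, 4.42 and 3.90 in DMSO, 4.12, 4.82, 4.10, 4.79 and 4.51 at 75 nM, and 4.56, 5.35, 5.06, 6.11 and 5.84 at 468 nM. For VASN the 468 nM arrays lay above all others of that time, whereas for PCDH10 they overlapped both other groups. VASN rose by 1.93 ± 0.29 at 468 nM (limma adjusted p = 6.2e-06), from a DMSO mean of 3.14 that is not far above the median of all probe sets (2.46), and exceeded 75 nM by 1.41 ± 0.27 (adjusted p = 3.08e-04). PCDH10 rose by 0.98 ± 0.29 (adjusted p = 0.00759) and exceeded 75 nM by 0.91 ± 0.27 (adjusted p = 0.0125). At 75 nM neither passed, with 0.52 ± 0.29 for VASN (adjusted p = 0.384) and 0.07 ± 0.29 for PCDH10 (adjusted p = 0.938). Fold changes of dim genes depend on how low signals are treated. With 16 added to each intensity before log2, the 24 h change at 468 nM was 1.01 for VASN (adjusted p = 3.56e-06), 1.21 for NPTXR (6.49e-07), 0.64 for PCDH10 (0.00398) and -0.53 for DIO2 (0.0277), each over 1.5 times smaller, and 0.57 for BAIAP2 (6.2e-06).

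At 468 nM NPTXR differed more from DMSO at 24 h than at 4 h (0.47 ± 0.28). It did not differ more between the doses at 24 h than at 4 h (1.36 ± 0.26). Its log2 intensities at 24 h were 3.54, 3.24, 2.98 and 3.35 in DMSO, 4.54, 4.55, 3.73, 4.19 and 4.01 at 75 nM, and 5.56, 5.91, 5.60, 5.18 and 4.91 at 468 nM. The 3 groups were separate and ordered by dose, unlike at 4 h. NPTXR rose by 2.16 ± 0.28 at 468 nM (limma adjusted p = 8.27e-07), from a DMSO mean of 3.28, and exceeded 75 nM by 1.23 ± 0.26 (adjusted p = 8.87e-04). At 75 nM it stood at 0.93 ± 0.28 (95% interval 0.35 to 1.51, adjusted p = 0.102). The DMSO level of NPTXR itself was lower at 24 h than at 4 h by a difference of -0.96 ± 0.30, so its 24 h changes are measured from a lower level.

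At 75 nM and 24 h limma called 0 of the 8 genes at an adjusted p below 0.05, where 0.872% of all tested genes were called. At an unadjusted p below 0.05 there were 5 (GJD2, MKNK2, BAIAP2, NPTXR and DIO2), where 15.9% of all tested genes had one. With samples of consecutive title codes taken as a block, GJD2 (limma adjusted p = 0.0367) and NPTXR (0.0314) were called at 75 nM. That block called 434 of all tested genes at this dose, in place of 81. The direct comparison of 468 nM with 75 nM at 24 h called 6 of the 8, all but MKNK2 and DIO2, where 30.8% of all tested genes were called. VASN and NPTXR passed the filter through 468 nM arrays alone, and PCDH10 through 9 such arrays and 1 in DMSO. No weight is therefore put on the counts of this paragraph that involve 468 nM. With no filter the limma adjusted p between the doses was 0.00136 for VASN, 0.00361 for NPTXR and 0.039 for PCDH10. With the block MKNK2 was called too (adjusted p = 0.0224). The arrays did not overlap for 7 genes at 468 nM against DMSO (30.1% of all tested genes), for 2 at 75 nM against DMSO (7.08%) and for 3 between the doses (18.3%).

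**Figure D2:**
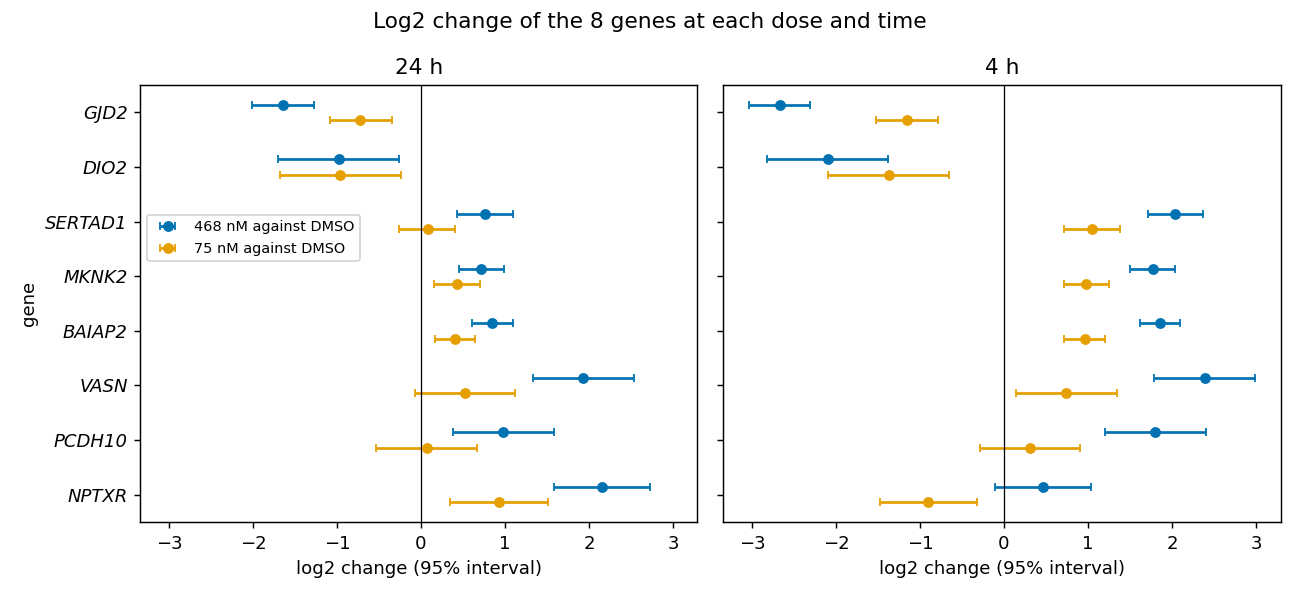
Log2 change against DMSO (horizontal axis) of the 8 genes (vertical axis) at 24 h on the left and 4 h on the right, for 468 nM (blue) and 75 nM (orange). Points are the fitted changes and bars their 95% intervals. The 4 h values chose the genes. At 24 h the 468 nM interval of every gene lies on 1 side of 0, while the 75 nM intervals of SERTAD1, VASN and PCDH10 include 0.

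Setting persistence beside dose grading, the log2 effect of 468 nM at 24 h was 80.7% of that at 4 h for VASN, 61.4% for GJD2, 54.6% for PCDH10, 46.6% for DIO2, 45.6% for BAIAP2, 40.9% for MKNK2 and 37.5% for SERTAD1. Since the 4 h effects were chosen for their size, these shares describe the arrays and were not tested. For scale, among the 1013 genes called at 468 nM and 4 h the median share was 61.1%, and 55.1% of them were called in the same direction at 24 h. Among the 229 that were also called between the doses at 4 h in the same direction the median was 54.4%. NPTXR had a larger effect of 468 nM at 24 h (2.16) than at 4 h (0.47), and its DMSO level was lower at 24 h by a difference of -0.96 ± 0.30. For DIO2 the 468 nM mean was 3.86 ± 0.51 at 24 h and 3.55 ± 0.52 at 4 h (SD, n = 5 each). The DMSO level of DIO2 was lower at 24 h than at 4 h by a difference of -0.81 ± 0.37, so its share reflects the DMSO level as well. That difference was -0.33 ± 0.12 in BAIAP2, -0.38 ± 0.31 in VASN, 0.46 ± 0.31 in PCDH10 and 0.26 ± 0.14 in MKNK2. It was -0.13 ± 0.19 in GJD2 and -0.06 ± 0.17 in SERTAD1. The shares of these genes depend on the DMSO level too. The effect of 468 nM at 24 h minus that at 4 h was 1.03 ± 0.25 for GJD2, -1.28 ± 0.23 for SERTAD1, -1.04 ± 0.19 for MKNK2, -1.01 ± 0.16 for BAIAP2 and 1.69 ± 0.40 for NPTXR. It was -0.46 ± 0.41 for VASN, -0.82 ± 0.41 for PCDH10 and 1.12 ± 0.50 for DIO2.

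As point values, the shares of the effect that the lower dose gave were close at the 2 times in some genes and not in others. The effect of 75 nM at 24 h was 43.6% of that of 468 nM in GJD2, against 42.9% at 4 h. It was 58.9% in MKNK2, against 55.6% at 4 h, 47.8% in BAIAP2, against 51.7%, and 27.2% in VASN, against 30.8%. In SERTAD1 it was 9.82% at 24 h, against 51.2% at 4 h, and in DIO2 97.9%, against 65.2%. PCDH10 had 6.79% at 24 h and 17.2% at 4 h, and NPTXR had 43% at 24 h, where at 4 h the doses had opposite signs. For scale, the median share at 24 h was 31% among the 1013 genes called at 468 nM and 4 h. The shares are ratios of 2 measured effects and were not tested, so no gene is called stable or changed by them. Some of the 75 nM effects behind them had wide errors. They were 0.07 ± 0.29 at 24 h and 0.31 ± 0.29 at 4 h in PCDH10. At 24 h they were 0.52 ± 0.29 in VASN and -0.96 ± 0.35 in DIO2.

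**Figure D3:**
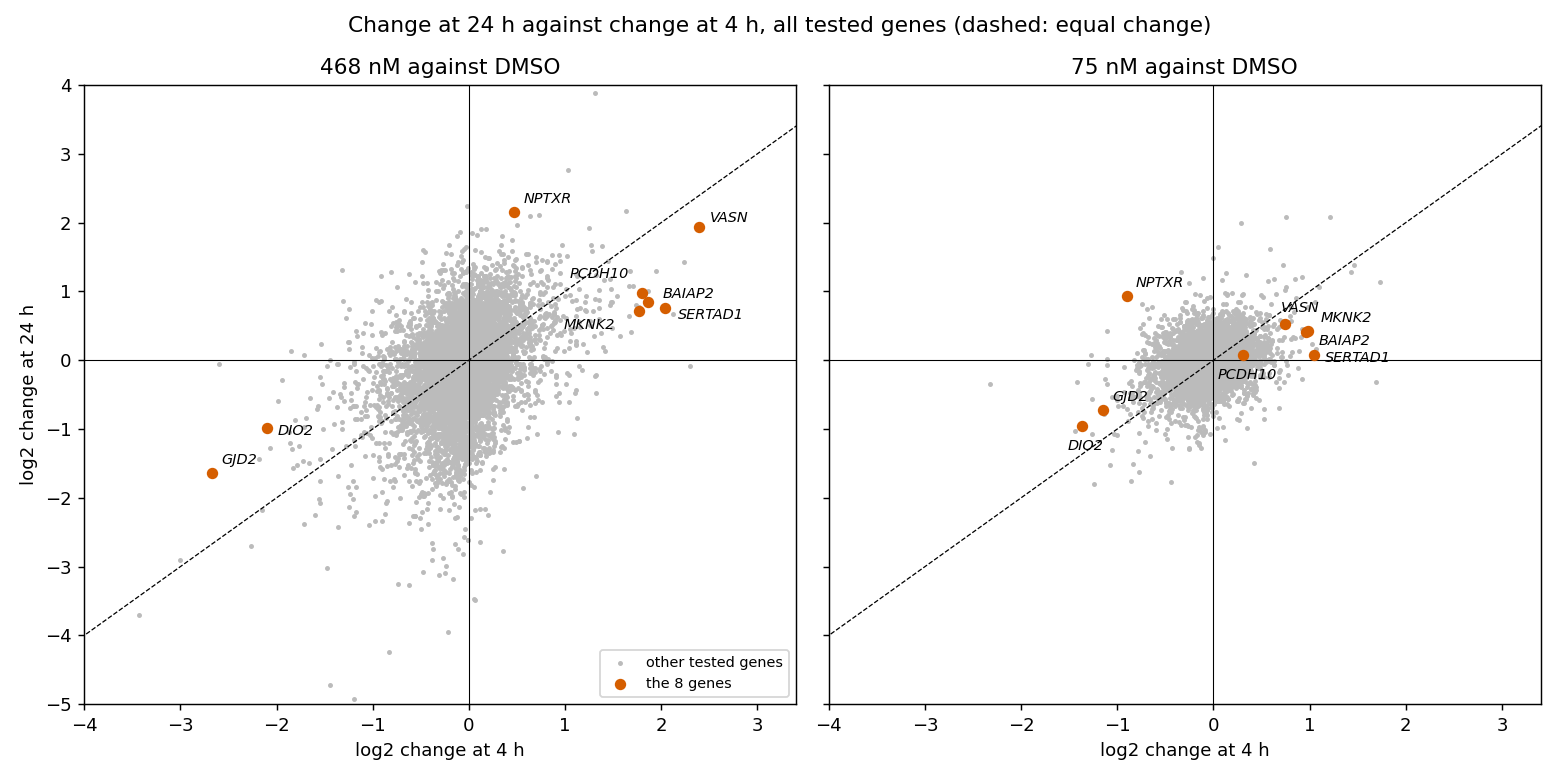
Log2 change at 24 h (vertical axis) against that at 4 h (horizontal axis) for all 9285 tested genes (grey) and the 8 genes (orange), at 468 nM on the left and 75 nM on the right. The dashed line marks equal change. NPTXR, GJD2 and DIO2 lie above the line at both doses, and the other 5 genes lie below it.

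HEXIM1 rose by 1.67 ± 0.13 at 468 nM and 4 h (limma adjusted p = 5.2e-10) and by 1.30 ± 0.13 at 468 nM and 24 h (adjusted p = 8.76e-09). MYC fell by 1.07 ± 0.13 (adjusted p = 2.59e-06) and by 0.54 ± 0.13 (adjusted p = 0.00185) in the same comparisons. At 75 nM and 4 h HEXIM1 rose by 0.85 ± 0.13 (adjusted p = 6.28e-04), and MYC stood at -0.41 ± 0.13 (adjusted p = 0.222). At 75 nM and 24 h neither passed, with HEXIM1 at 0.32 ± 0.13 (adjusted p = 0.201) and MYC at -0.01 ± 0.13 (adjusted p = 0.985). SERPINI1, listed with them as a readout of BET inhibition, rose by 1.54 ± 0.24 at 468 nM and 24 h (adjusted p = 1.12e-05). Over the 28 arrays the log2 values of VASN had a Pearson r of 0.92 with HEXIM1 and with TENT5C, a non-canonical poly(A) polymerase. Such correlations describe arrays that share the treatment, and no p is given.

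The genes most like each of the other 7 over the 28 arrays overlapped among SERTAD1, MKNK2 and BAIAP2. TUFT1 was among the 2 most like genes of all 3, with r of 0.95 for SERTAD1, 0.90 for MKNK2 and 0.93 for BAIAP2. It was joined by MAP2K3, a p38-activating kinase, for SERTAD1 (0.91), by the zinc finger gene PLAGL1 for MKNK2 (0.91) and by ERRFI1, a feedback inhibitor of EGF receptor signalling, for BAIAP2 (0.95). GJD2 was most like TNFAIP3, a feedback inhibitor of NF-kB (0.94), and RTP4 (0.89). DIO2 was most like the growth factor gene PDGFB (0.79) and FAM124A (0.75), PCDH10 like the fatty acid elongase gene ELOVL4 (0.82) and the aryl hydrocarbon receptor gene AHR (0.81), and NPTXR like LOC100130027 (0.81) and the spectrin gene SPTAN1 (0.80). Among the 8, the highest positive correlation was that of SERTAD1 with BAIAP2 (0.92) and the most negative that of GJD2 with MKNK2 (-0.92). NPTXR had r of 0.21 with SERTAD1, -0.22 with DIO2 and 0.26 with BAIAP2, and at most 0.53, with VASN.

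Lists of related genes showed whether the tested genes around each gene moved with it at 468 nM, where 10.9% of all tested genes were called at 4 h and 45.6% at 24 h. Each list also held dimmer genes that did not pass the filter. Tested were 4 of 20 connexins and pannexins on the array, 14 of 22 SERTAD and E2F genes, and 12 of 14 MNK and eIF4E genes. So were 19 of 25 actin and 21 of 28 TGF-beta genes. The others were 4 of 15 pentraxin and AMPA receptor, 7 of 14 cadherin and 17 of 22 thyroid hormone genes. Of the 4 tested connexin and pannexin genes beside GJD2, 0 were called by limma at 4 h (1 had an unadjusted p below 0.05, as had 22.3% of all tested genes) and 2 fell at 24 h, with a median change of -0.17 against -0.019 over all tested genes. They were GJB1, a connexin of glia and epithelia (-1.64 ± 0.33, adjusted p = 2.59e-04), and GJC1 (-0.31 ± 0.09, adjusted p = 0.00911), whose call was lost without DMSO 24 h replicate 1 (-0.22, adjusted p = 0.0609). Of 14 genes of the SERTAD family and the cyclin D, CDK4 and E2F axis beside SERTAD1, 1 rose and 3 fell at 4 h, and 1 rose and 9 fell at 24 h, with a median of -0.67 at 24 h. SERTAD4, a relative of SERTAD1, fell at both times, by 1.94 ± 0.19 at 24 h (adjusted p = 1.24e-08) and by 1.24 ± 0.19 at 4 h (adjusted p = 5.75e-05), against the rise of SERTAD1. The cell cycle factors E2F2 (-2.23 ± 0.27, adjusted p = 2.71e-07) and E2F1 (-1.37 ± 0.17, adjusted p = 2.85e-07) fell at 24 h. At 4 h E2F2 (-0.87 ± 0.27, adjusted p = 0.0349) and SERTAD2 (0.55 ± 0.14, adjusted p = 0.0122) passed less firmly. E2F2 missed the threshold without any 1 of 6 arrays, DMSO replicates 1 to 3 and 468 nM replicates 1, 3 and 5 (adjusted p of 0.0631 to 0.108), and SERTAD2 without DMSO replicate 1 (0.50, adjusted p = 0.0511) and after the shift by reference genes (0.40, adjusted p = 0.136).

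Of 12 tested genes of the MNK and eIF4E pathway beside MKNK2, 3 rose at 4 h and 2 rose and 4 fell at 24 h. The 3 at 4 h were the other MNK kinase gene MKNK1 (0.53 ± 0.17, adjusted p = 0.0426), RPS6KB1 (0.34 ± 0.09, adjusted p = 0.0179) and EIF4EBP2 (0.27 ± 0.09, adjusted p = 0.0408). MKNK1 missed the threshold when any of 7 arrays was left out (DMSO replicates 1 to 3, 468 nM replicates 1, 2, 3 and 5, adjusted p of 0.0572 to 0.17). RPS6KB1 missed it without DMSO replicate 3 (0.0702), and EIF4EBP2 without any of 6 arrays (DMSO replicates 3 and 4, 468 nM replicates 2 to 5, adjusted p of 0.0549 to 0.154). After the shift by reference genes the 3 values were 0.39 for MKNK1 (adjusted p = 0.185), 0.20 for RPS6KB1 (0.399) and 0.13 for EIF4EBP2 (0.537). At 24 h MKNK1 rose by 0.66 ± 0.17 (adjusted p = 0.00279), while the substrate gene EIF4E fell by 0.71 ± 0.16 (adjusted p = 5.29e-04) and EIF4EBP1, which encodes a repressor of eIF4E, fell by 0.54 ± 0.13 (adjusted p = 9.79e-04). Of 19 actin genes beside BAIAP2, 0 were called by limma at 4 h (3 had an unadjusted p below 0.05) and 3 rose and 5 fell at 24 h. They included falls of the formin genes DIAPH3 (-1.17 ± 0.18, adjusted p = 6.6e-06) and DIAPH2 (-0.97 ± 0.14, adjusted p = 4.52e-06) and of MTSS2, an I-BAR relative of BAIAP2 (-0.93 ± 0.15, adjusted p = 1.17e-05). AATK, a kinase gene that overlaps BAIAP2 in the RefSeq gene table and was picked after its values were seen, stood at -1.85 at 468 nM and 24 h and at -1.26 at 4 h, opposite to BAIAP2.

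Of 21 TGF-beta pathway genes beside VASN, 2 rose and 1 fell at 4 h, and 5 rose and 1 fell at 24 h. SKI, a repressor of SMAD signalling, rose at 4 h (0.86 ± 0.16, adjusted p = 3.41e-04). Its relative SKIL rose at 24 h (0.60 ± 0.16, adjusted p = 0.00285, and 0.0636 after the shift by reference genes) and fell at 4 h (-0.51 ± 0.16, adjusted p = 0.036), where leaving out any of 5 arrays lost the call (DMSO replicates 1, 2 and 4, 468 nM replicates 2 and 4, adjusted p of 0.0558 to 0.116). The receptor gene TGFBR1 rose at 4 h (0.34 ± 0.11, adjusted p = 0.0408), a call lost when any of 6 arrays was left out (DMSO replicates 1 to 3, 468 nM replicates 3 to 5, adjusted p of 0.0619 to 0.135) and after the shift by reference genes (0.20, adjusted p = 0.416). At 24 h the ligand gene TGFB1 rose (0.84 ± 0.12, adjusted p = 1.71e-06) and the co-receptor gene ENG fell (-1.01 ± 0.15, adjusted p = 6.2e-06). Of 4 tested pentraxin and AMPA receptor genes beside NPTXR, the secreted pentraxin NPTX2 rose by 0.51 ± 0.11 at 24 h (adjusted p = 5.93e-04) and by 0.54 ± 0.11 at 4 h (adjusted p = 0.00156, and 0.0743 after the shift by reference genes). PICK1, which binds AMPA receptors, fell at 4 h (-0.67 ± 0.17, adjusted p = 0.011). CACNG4, an auxiliary subunit of AMPA receptors, fell at 24 h (-0.60 ± 0.24, adjusted p = 0.0392), a call lost when any DMSO array or any of 468 nM replicates 3 to 5 was left out (0.0554 to 0.0965).

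Of 7 cadherin superfamily genes beside PCDH10, 1 rose and 1 fell at 4 h, and 4 rose and 1 fell at 24 h. PCDH18, a protocadherin of the same subfamily, fell by 1.16 ± 0.09 at 4 h (adjusted p = 2.33e-09), against the higher level of PCDH10. PCDH17, of that subfamily too, rose at 4 h (0.88 ± 0.28, adjusted p = 0.0433), a call lost when any of 7 arrays was left out (DMSO replicates 2 to 4, 468 nM replicates 1, 3, 4 and 5, adjusted p of 0.0655 to 0.173) and after the shift by reference genes (0.74, adjusted p = 0.133). At 24 h PCDH11X (1.21 ± 0.35, adjusted p = 0.00633) and the neural cadherin gene CDH2 (0.84 ± 0.14, adjusted p = 2.17e-05) rose, as did CDH11 (0.42 ± 0.12, adjusted p = 0.00476, and 0.165 after the shift by reference genes). Of 17 thyroid hormone and selenoprotein synthesis genes beside DIO2, 1 rose and 4 fell at 4 h, and 5 rose and 4 fell at 24 h. At 4 h HR, a corepressor of thyroid hormone receptors, fell (-0.63 ± 0.15, adjusted p = 0.0072), as did KLF9, a thyroid hormone target gene (-0.95 ± 0.24, adjusted p = 0.00819, and 0.0509 without DMSO replicate 4). SLC16A10, a transporter gene for thyroid hormone, rose at 4 h (0.64 ± 0.19, adjusted p = 0.0246), a call lost when any of 5 arrays was left out (DMSO replicates 1 and 3, 468 nM replicates 1, 2 and 5, adjusted p of 0.0518 to 0.107) and after the shift by reference genes (0.49, adjusted p = 0.125). RXRG, a retinoid X receptor that pairs with thyroid hormone receptors, fell by 2.87 ± 0.22 at 24 h (adjusted p = 1.5e-10). USP20, which removes ubiquitin from the deiodinase (1.23 ± 0.19, adjusted p = 1.2e-05), and SECISBP2, which is needed to insert selenocysteine (0.93 ± 0.10, adjusted p = 4.42e-08), rose at 24 h. With no filter on dim genes the 4 h calls of E2F2, MKNK1, RPS6KB1, EIF4EBP2, SKIL, TGFBR1, PCDH17 and SLC16A10 and the 24 h call of CACNG4 were lost (adjusted p of 0.0786 to 0.164). A fit of only the groups compared lost the 24 h calls of GJC1 (0.0808) and CDH11 (0.0539). It also lost the 4 h calls of EIF4EBP2 (0.0977), SKIL (0.0747), PCDH17 (0.0538) and SLC16A10 (0.0502). MKNK1 at 4 h was lost with 16 added (0.0723) and with the intensity trend (0.0651), and CACNG4 at 24 h after repeated quantile normalization (0.0714).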

How the data were processed

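RNA of 28 samples was measured on 1-colour arrays. The deposited table held linear intensity values of 53617 probe sets that the authors made with RMA, per the submitters' processing notes. The sources used here do not give its software version or genome build. The deposited intensities were turned into log2 (Python 3.11.15). The number of arrays limits the precision. Names of probe sets came from GEO's platform annotation (23871 with 1 symbol, 1842 with several, 27904 with none), with symbols updated through an NCBI RefSeq gene table (GRCh38.p14). A gene was represented by its brightest probe set.

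limma 3.58.1 (R 4.3.3) fitted 6 group means to all 28 arrays (22 residual and 3.84 prior degrees of freedom), and p-values were adjusted by Benjamini-Hochberg over 9285 genes within each comparison, with a threshold of 0.05. The script was tested on simulated data. The 8 genes and the lists were chosen with earlier results of these data known. Named from a list were up to 3 called genes with the largest change at 468 nM, at each time, or fewer where fewer were called. Likeness was ranked by Pearson r. Alternatives were other filters (none, or 7 in place of 5), normalizations, an offset of 16 before log2, the groups compared alone, a block, the mean of a gene's probe sets, an intensity trend, and each array left out.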

Additional observations from a re-analysis of the deposited data

Results flagged for a closer look

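The response of NPTXR to 75 nM had opposite signs at the 2 times: at 24 h all 5 arrays were above all DMSO arrays, with a log2 change of 0.93, and at 4 h all 5 were below, with -0.90. The 24 h change did not pass (limma adjusted p = 0.102), and no 75 nM or DMSO array of NPTXR was above the filter value of 5. With 16 added to each intensity before log2 the change was 0.43 at 24 h and -0.40 at 4 h. The difference between the times was not tested, because the 4 h arrays chose the gene. At 24 h it averaged 4.20 ± 0.35 at 75 nM (SD, n = 5) and 3.28 ± 0.23 in DMSO (SD, n = 4), and at 4 h 3.34 ± 0.56 at 75 nM and 4.24 ± 0.22 in DMSO.

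In 3 of 48 sets of arrays (8 genes in 6 groups) 1 array lay far from the others of its group by Dixon's criterion, which chance gives in about 1 set of 20. MKNK2 was 8.45 in 468 nM, 4 h replicate 2, DIO2 was 3.44 in 75 nM, 4 h replicate 3, and VASN was 3.41 in DMSO, 24 h replicate 1.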

How the results depend on the processing

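At 24 h, every gene of the 8 kept its direction at 468 nM against DMSO under all alternatives and without each array in turn. The 8 calls held there except that of DIO2, named above. With the filter at 7, GJD2, SERTAD1 and MKNK2 were the ones of the 8 still tested, and 3 were called at 468 nM (2772 of all genes) and 2 between the doses. Without single arrays the number of the 8 called was 7 to 8 at 468 nM (3809 to 4282 of all genes), 6 to 7 between the doses (2537 to 2929) and 0 to 1 at 75 nM (41 to 87). At 75 nM 1 gene, GJD2, was called with the filter at 7, repeated quantile normalization (adjusted p = 0.0432), the shift by reference genes (0.0133), the offset of 16 (0.0319) and the intensity trend, and 2 genes, GJD2 (0.0367) and NPTXR (0.0314), with the block. All genes called at 75 nM numbered 81, and 18 with no filter, 139 after the shift, 133 with the offset, 52 with the groups compared alone and 434 with the block. The labels give no replicate numbers, and the block grouped samples with consecutive codes in their titles. Deviations from the group means correlated at 0.0148 to 0.345 within such sets (26 pairs of arrays, mean 0.199) and at -0.32 to 0.261 between them (mean -0.0495). Deviations sum to 0 within each group, so the mean between sets follows largely from the mean within sets and is no separate comparison. By the mean within sets, arrays of a set varied together on average. The labels do not say what the codes mark, so the main fit did not take the sets as pairs. Whether a set is a batch cannot be told from the labels, and the counts at 75 nM depend on this choice. The block also brought MKNK2 past the threshold between the doses (adjusted p = 0.0224), and lost TGFBR1 (0.0735) and SLC16A10 (0.0546) at 4 h and CACNG4 (0.0636) at 24 h.

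Values near 0 changed sign. At 75 nM against DMSO SERTAD1 became -0.06 after the shift and -0.03 (without DMSO replicate 3) to 0.15 without single arrays, and PCDH10 -0.07 after the shift and -0.10 to 0.30 without single arrays. Between the doses DIO2 became 0.02 after repeated quantile normalization and -0.25 to 0.24 without single arrays, and MYC at 75 nM ranged from -0.07 to 0.03 without single arrays. No test passed with these signs. Low signal limits VASN, NPTXR, PCDH10 and DIO2: with the offset of 16 the 4 h difference of DIO2 at 468 nM was -1.26, that of BAIAP2 1.46, and NPTXR between the doses 0.69.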

Other observations

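Genes next to or overlapping the 8 in the RefSeq table were looked up after the values of the 8 had been seen. BAIAP2-DT, a non-coding RNA gene named as a divergent transcript of BAIAP2, did not pass the filter, with mean log2 values of 4.34 ± 0.54 at 468 nM and 3.69 ± 0.28 in DMSO at 24 h, and of 3.51 ± 0.14 at 468 nM and 4.13 ± 0.36 in DMSO at 4 h (SD, n = 5 and n = 4). DIO2-AS1, which overlaps DIO2, was dim in every group, with means between 1.57 and 2.24. CORO7, which overlaps VASN, was not named alone by a probe set.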
